A study of Mus musculus with 9 samples.

Results

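Acute phase and neutrophil-linked secreted proteins were followed here through 10 genes in mouse liver. These were Lcn2 (ENSMUSG00000026822), the serum amyloid A genes Saa1 (ENSMUSG00000074115), Saa2 (ENSMUSG00000057465) and Saa3 (ENSMUSG00000040026), and the orosomucoid genes Orm1 (ENSMUSG00000039196) and Orm2 (ENSMUSG00000061540). Crp (ENSMUSG00000037942), Hp (ENSMUSG00000031722), S100a8 (ENSMUSG00000056054) and S100a9 (ENSMUSG00000056071) completed the set. The genes were listed by name, but with earlier results of these data known, so counts of members set against all genes are a description. All 10 were found among the 16521 genes measured. All 10 had a mean value above the minimum for testing in each of the 3 comparisons.

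Liver RNA of C57BL/6 mice was sequenced in 9 samples, 3 in each of 3 groups, and mice were assigned to the groups at random. The normal group received saline. The model group was fed the methionine- and choline-deficient (MCD) diet, which produces fatty liver with inflammation in rodents, and the SAR group was fed the same diet and given a high dose of sarsasapogenin (SAR), a steroidal sapogenin of plant origin. The sources used here do not give the dose, the age of the mice, the length of feeding, the diet of the normal group or any vehicle of the model group. No label says that the 3 samples of a group came from separate mice, so p-values measure the spread between these samples, which may in part be technical.

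In the acute phase response, cytokines released during infection or injury, chiefly interleukin 6 and interleukin 1, act on hepatocytes through STAT3, C/EBP and NF-kappa B transcription factors. Hepatocytes then secrete serum amyloid A, orosomucoid, haptoglobin and other plasma proteins. Lipocalin 2, which binds bacterial iron carriers, is made both by hepatocytes and by neutrophils. S100A8 and S100A9 form calprotectin, the main cytosolic protein of neutrophils, and their transcripts in liver tissue come largely from myeloid cells.

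Values are reads divided by a size factor of the library, on a scale common to the 9 libraries, and are called normalised reads. The 3 libraries of a group are called a, b and c in order of size factor, since they could not be tied to the replicate numbers of the labels. Each held between 10291568 and 14193622 reads recovered from the deposited group means, not counting Alb and mt-Co1, which were not settled in every group. Of the 30 group means of these genes, 25 had 1 possible set of reads, and the other 5 (Hp in the normal and SAR groups, and Saa1, Saa2 and Orm1 in the normal group) were settled with the authors' deposited p-value.

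Normal library c stood apart from normal libraries a and b. The 10 genes made up 7.53% of its reads outside Alb and mt-Co1, against 0.475% and 0.607% in normal libraries a and b, 1.01% to 1.49% in the model group and 0.770% to 0.827% in the SAR group. For Mup11, which encodes a major urinary protein and is more active in males, normal library c held 52.8 normalised reads, and normal libraries a and b held 9818 and 11438. The model libraries held 29.7, 14.5 and 26.3 and the SAR libraries 4981, 15547 and 5997, so a low value was not particular to normal library c. The comparisons of the 10 genes and of the gene lists with the normal group are therefore given with and without normal library c. This choice rests on the members' own values, so adjusted p-values without that library are descriptive. What set this library apart was not tested.

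The promoters of these genes are shown first, since the C/EBP type motif TTGCNNAA was shared by 6 of them. RefSeq windows of 300 bases, from 250 before to 50 after the start site in build GRCm38.p6, matched 8 of the 10 genes, without Orm1 and Hp. Searched on both strands, TTGCNNAA was present in the windows of Lcn2, Saa1, Saa2, Saa3, Orm2 and S100a9 and not in those of Crp and S100a8. Of all 32851 windows in the table, 10.8% held it. The kappa B type motif GGANNNTCC and the STAT type motif TTCNNNGAA were present in none of the 8 windows, against 8.62% and 8.30% of all windows. These are matches of letters in a fixed window, and no binding was measured. Each line gives the stretch around the match, 5′ to 3′ on the strand of the gene, with the match in capitals.
Lcn2: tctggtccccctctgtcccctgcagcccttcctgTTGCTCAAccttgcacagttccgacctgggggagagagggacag
Saa1: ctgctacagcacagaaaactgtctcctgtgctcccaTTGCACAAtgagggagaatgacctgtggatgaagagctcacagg
Saa2: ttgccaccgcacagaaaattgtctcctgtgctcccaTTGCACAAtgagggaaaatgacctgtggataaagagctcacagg
Saa3: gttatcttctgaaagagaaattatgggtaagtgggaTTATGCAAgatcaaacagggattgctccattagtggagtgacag
Orm2: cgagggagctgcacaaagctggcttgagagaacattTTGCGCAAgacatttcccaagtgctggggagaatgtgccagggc
S100a9: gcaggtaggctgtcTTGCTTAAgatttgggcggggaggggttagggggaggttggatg

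The Lcn2 stretch lies at chr2:32387912-32387989 on the minus strand, and its match begins 216 bases before the start site. The match of Saa1, at chr7:46743119-46743198 on the minus strand, begins 182 bases before its start site, and that of Saa2, at chr7:46751614-46751693 on the plus strand, 183 bases before. The windows of Saa1 and Saa2 had 287 of their 300 bases in common and were 95.3% identical over an alignment with gaps, and both stretches carried the same 8 letters, TTGCACAA. The Saa3 stretch lies at chr7:46715732-46715811 on the minus strand and holds the motif on the opposite strand, 99 bases before the start site. The Orm2 match, at chr4:63362293-63362372 on the plus strand, begins 120 bases before, and the S100a9 match, at chr3:90695914-90695971 on the minus strand, 236 bases before the start site.

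Lcn2, which encodes lipocalin 2, stood at 90.2 and 262 normalised reads in normal libraries a and b and at 40977 in normal library c. The model libraries held 9218, 8380 and 11048. The SAR libraries held 1113, 1793 and 1534. Both model and SAR libraries lay above normal libraries a and b and below normal library c, and the model and SAR ranges did not overlap.

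Among the serum amyloid A genes, whose products are carried on high-density lipoprotein, Saa1 stood at 641, 1689 and 292418 normalised reads in normal libraries a, b and c. It stood at 1232, 1074 and 1610 in the model libraries and at 2279, 3293 and 3892 in the SAR libraries. The model libraries fell between normal libraries a and b, and every SAR library lay above every model library. Saa2 stood at 244, 537 and 250919 in the normal libraries. In the model group it stood at 701, 632 and 731, and in the SAR group at 1123, 2129 and 2246. Its order was that of Saa1, except that all model libraries lay above normal libraries a and b. Saa3, the form made mainly outside hepatocytes, in macrophages and fat among other tissues, stood at 88.3, 79.7 and 815 normalised reads in the normal libraries. It stood at 267, 214 and 414 in the model libraries and at 503, 676 and 998 in the SAR libraries. The 3 groups formed 3 separate steps for Saa3 if normal library c is set aside, and 2 of the 3 SAR libraries lay below that library.

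The orosomucoids are abundant plasma proteins that bind drugs and lipids. Orm1 stood at 7604, 12422 and 135091 normalised reads in the normal libraries. The model libraries held 9440, 9547 and 22646, and the SAR libraries 11655, 10672 and 10845. The groups overlapped, and model library c stood above both other model libraries and all SAR libraries. Orm2 stood at 180, 334 and 30470 in the normal libraries, at 2802, 2116 and 7379 in the model libraries and at 1082, 1256 and 1304 in the SAR libraries. The Orm2 ranges of the model and SAR groups did not overlap, and both lay above normal libraries a and b.

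Hp encodes haptoglobin, which captures free hemoglobin. It stood at 49119, 58219 and 391625 normalised reads in the normal libraries, at 63913, 65081 and 107565 in the model libraries and at 76309, 83314 and 82771 in the SAR libraries. All SAR libraries lay inside the model range. Crp encodes C-reactive protein, a pentraxin that in mice, unlike in humans, is only a minor acute phase reactant. It was the member for which normal library c did not stand apart, with 6627, 7048 and 7409 in the normal libraries, 1462, 1715 and 3527 in the model libraries and 3496, 6318 and 5041 in the SAR libraries. Every normal library lay above every model and SAR library, and SAR library a lay just below model library c.

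S100a8 stood at 6.72, 46.3 and 1651 normalised reads in the normal libraries, at 163, 263 and 623 in the model libraries and at 65.6, 25.4 and 161 in the SAR libraries. S100a9 stood at 38.4, 74.3 and 3496, at 370, 626 and 1384, and at 79.9, 83.4 and 243 in the same order. In both genes library c was the highest of each group, and the model and SAR ranges did not overlap. For S100a8 the gap was narrow, from 161 in SAR library c to 163 in model library a.

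**Figure D1:**
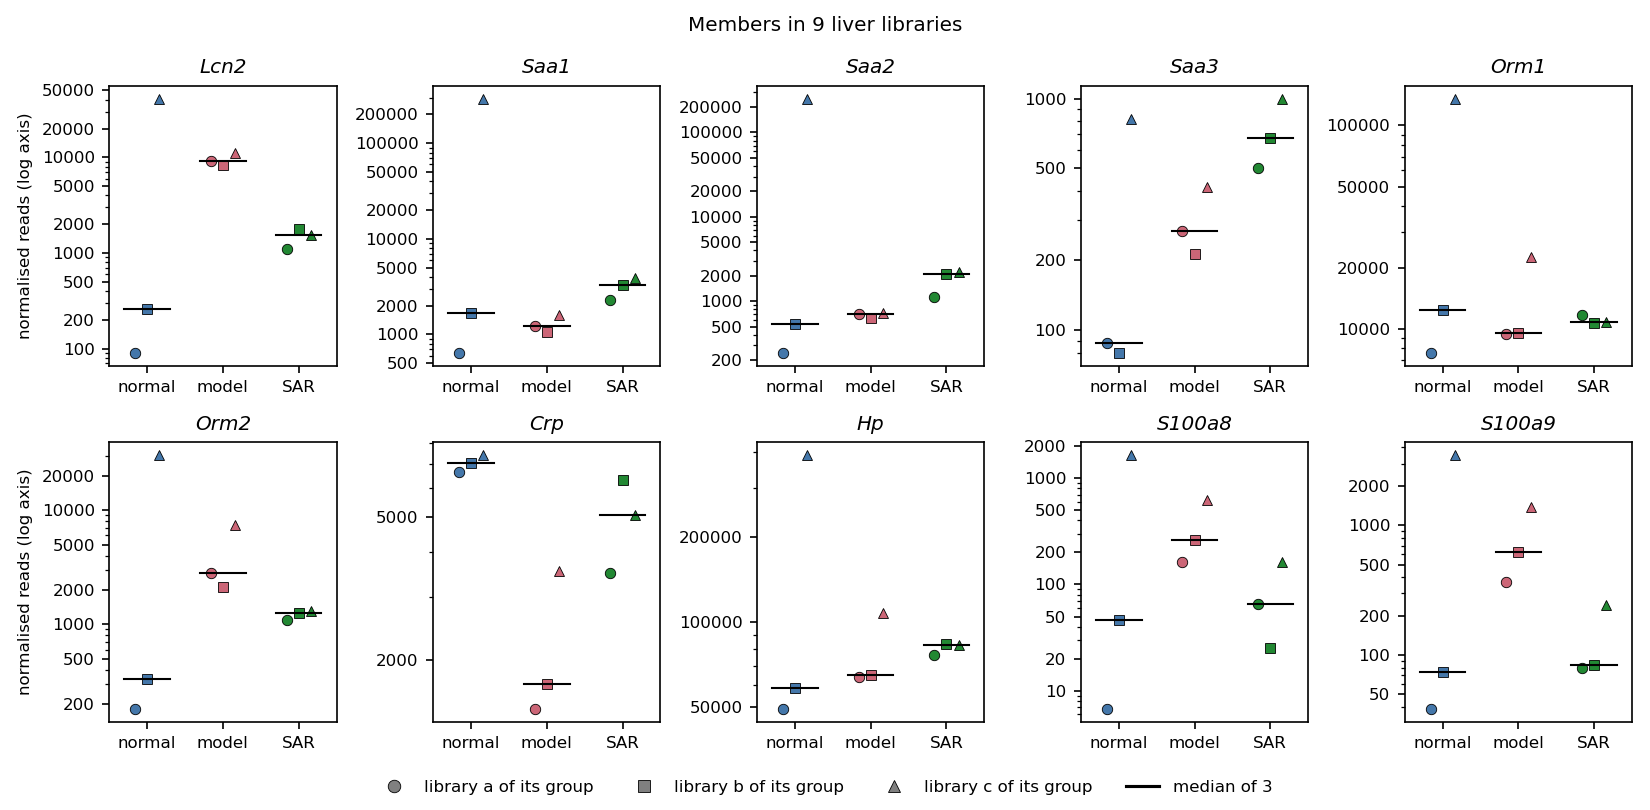
Normalised reads of the 10 genes on a log axis in the 9 libraries, by group, with the median of each group as a line. Normal library c is the highest library for every gene but Saa3, where SAR library c is higher, and for Crp the 3 normal libraries lie together at the top.

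Library c held most of the summed normal value of 9 of the 10 genes. Its share was 99.1% for Lcn2, 99.2% for Saa1, 99.7% for Saa2, 98.3% for Orm2 and 96.9% for both S100a8 and S100a9, so that it passed 90% in 6 genes. It was 87.1% for Orm1, 82.9% for Saa3 and 78.5% for Hp. For Crp it was 35.1%, close to an equal share. The SD of the normal group was accordingly larger than its mean for all members but Crp: Lcn2 gave 13776 ± 23557 (SD, n = 3) and Crp 7028 ± 392.

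Levels can be compared between genes only per length of transcript, taken here as the longest principal transcript of GENCODE. Per kilobase, Hp was the highest of the 10 by group median, at 43285 normalised reads per kilobase in the normal, 48387 in the model and 61539 in the SAR group. Orm1 was the next in all 3 groups, at 16028, 12319 and 13993. Lcn2 moved from the seventh place in the normal group (286) to the third in the model group (10075) and the sixth in the SAR group (1676). Crp moved from the third place (4158) to the eighth (1012) and the fifth (2974). S100a8 was the last in the normal and SAR groups, at 95.3 and 135, and Saa3 in the model group, at 481. All normal medians are values of library a or b.

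The comparison of the model with the normal group asks what the diet did to these genes. With all 6 libraries, Crp fell by 1.77 on the log2 scale (SE 0.32, 3.41-fold, limma adjusted p = 0.00648). It was the only one of the 10 called, 1 of 10 where 19.2% of all 12654 genes tested were lower and 19.7% higher. Differences are between group means of log2(value + 1), which understates the change of genes with few reads. The 9 other members did not pass, and their SEs were between 0.83 and 2.30. Lcn2 differed by 3.25 (SE 1.98, limma adjusted p = 0.222) and Saa1 by -2.41 (SE 2.0, limma adjusted p = 0.360). The median difference was 0.11 over the 10 members and 0.02 over all genes tested. In the authors' deposited table, whose fold is the ratio of group means, Lcn2 stood at a fold of 0.690, Saa1 at 0.0132 and Saa2 at 0.00816. None of these folds passed the authors' test (adjusted p in the authors' deposited table = 0.949, 0.318 and 0.275), and Crp, at a fold of 0.317, did (3.11e-09 in that table).

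Normal library c was singled out by the values of these same genes, and leaving it out lowers the normal level of genes high in it. The fit without it is therefore a description. Without normal library c, 6 of the 10 members passed. Higher in the model group were 5, against 20.4% of all genes higher in that comparison. Lcn2 rose by 5.93 on the log2 scale (SE 0.41, 61.0-fold, limma adjusted p = 2.58e-04). S100a8 rose by 3.98 (SE 0.81), Orm2 by 3.83 (SE 0.52), S100a9 by 3.65 (SE 0.54) and Saa3 by 1.75 (SE 0.29), with limma adjusted p of 0.00988, 0.00252, 0.00323 and 0.00468. All 3 model libraries lay above both remaining normal libraries for each of these genes. Crp fell by 1.73 (SE 0.37, limma adjusted p = 0.0110), against 18.4% of all genes lower. Saa2 at 0.91 (limma adjusted p = 0.0523), Hp at 0.51 (0.426), Orm1 at 0.38 (0.527) and Saa1 at 0.30 (0.567) did not pass. The members' median difference was then 1.33, against 0.03 over all genes. Saa1 and Lcn2, both acute phase genes, thus stood at 1.23-fold and 61.0-fold in the same libraries.

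**Figure D2:**
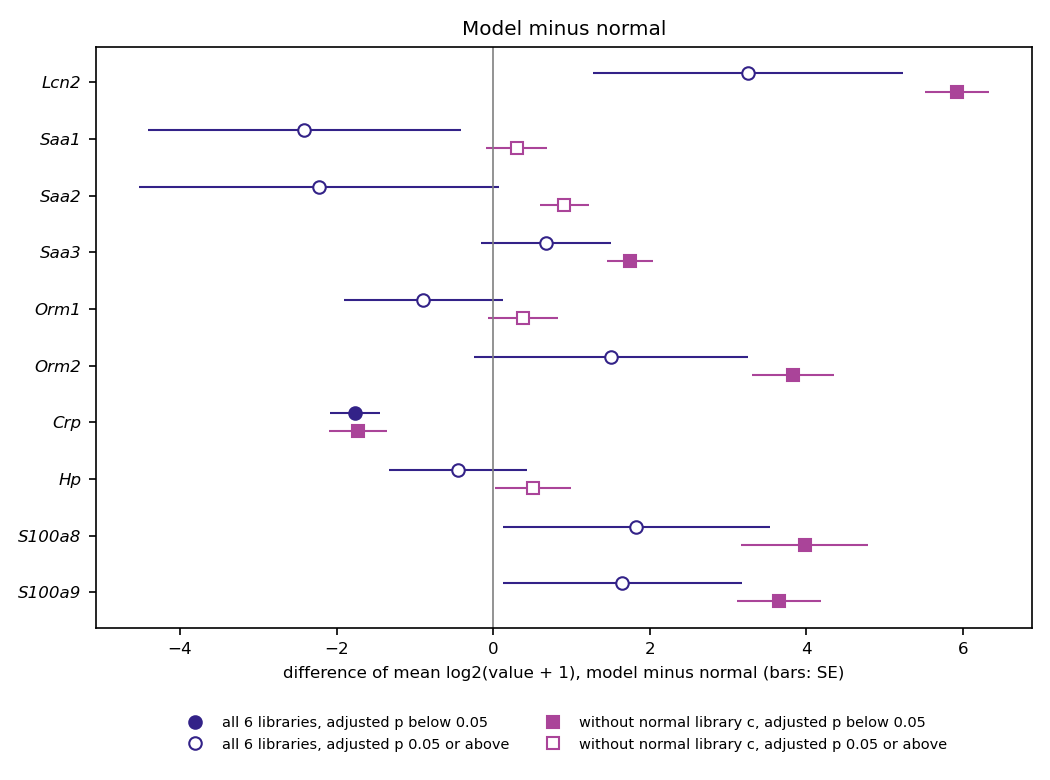
Difference in mean log2(value + 1), model minus normal, for each gene with its SE, with all 6 libraries (circles) and without normal library c (squares); filled symbols have an adjusted p below 0.05. Crp is at -1.77 and -1.73, while Lcn2 goes from 3.25 to 5.93 and Saa1 from -2.41 to 0.30.

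The comparison of the SAR with the model group asks what sarsasapogenin did in mice on the MCD diet. It uses no normal library. Of the 10 members 4 fell and 4 rose, against 16.0% of all 12532 genes lower and 13.5% higher. Lcn2, Orm2, S100a8 and S100a9 fell, and the 3 serum amyloid A genes and Crp rose, so that members of this set moved in opposite directions. Hp and Orm1 did not pass. The members' median difference was -0.03, against 0.02 over all genes.

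Lcn2 fell by 2.68 on the log2 scale (SE 0.22, 6.41-fold, limma adjusted p = 2.68e-04), from 9549 ± 1364 to 1480 ± 343 normalised reads (SD, n = 3). S100a9 fell by 2.50 (SE 0.53, limma adjusted p = 0.0103), from 793 ± 528 to 136 ± 93.4. S100a8, its partner in calprotectin, fell by 2.16 (SE 0.65, limma adjusted p = 0.0367), from 350 ± 242 to 84.1 ± 69.9. Orm2 fell by 1.52 (SE 0.39, limma adjusted p = 0.0218), from 4099 ± 2861 to 1214 ± 117. Its relative Orm1 differed by -0.17 (SE 0.34, limma adjusted p = 0.724). The spread of Orm2 was in the model group, where library c held 7379. Without model library c, Orm2 fell by 0.98 (limma adjusted p = 0.00170).

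Saa2 rose by 1.38 (SE 0.26, 2.59-fold, limma adjusted p = 0.00631), from 688 ± 50.6 to 1833 ± 617 normalised reads. Saa3 rose by 1.31 (SE 0.30, limma adjusted p = 0.0136), from 298 ± 104 to 726 ± 251. Saa1 rose by 1.28 (SE 0.23, limma adjusted p = 0.00591), from 1305 ± 275 to 3154 ± 815. The 3 serum amyloid A genes thus lay between 2.44-fold and 2.59-fold. Crp rose by 1.24 (SE 0.34, limma adjusted p = 0.0270), from 2235 ± 1126 to 4952 ± 1413, and its SAR mean lay below the normal mean. Hp differed by 0.10 (SE 0.40, limma adjusted p = 0.859).

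**Figure D3:**
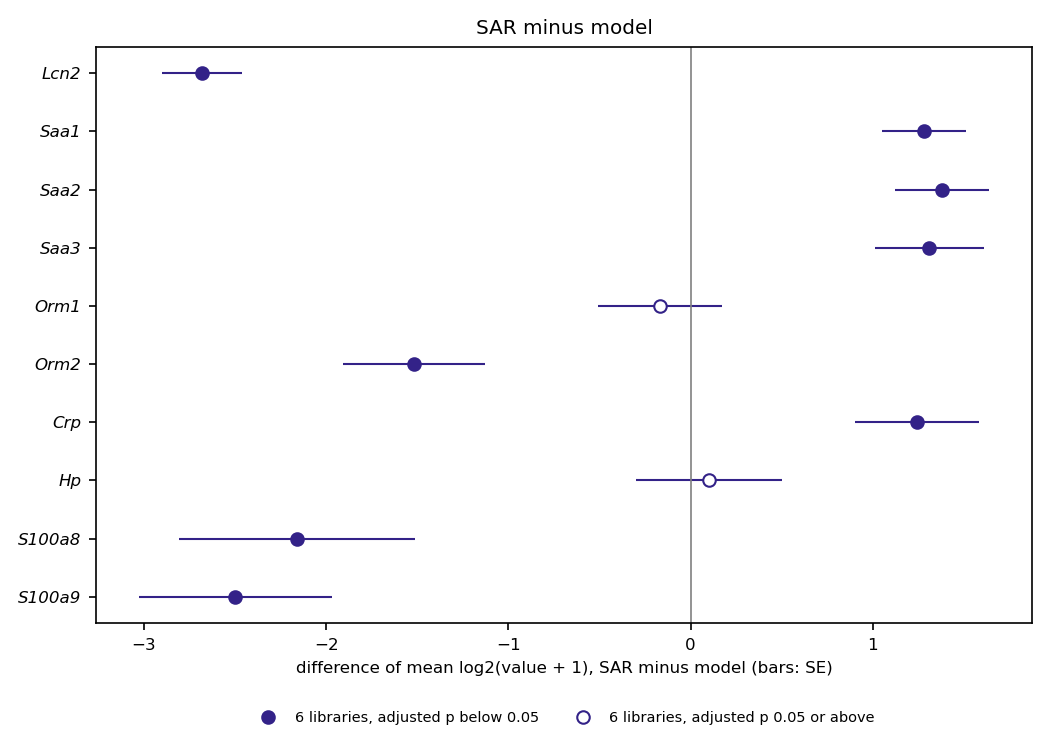
Difference in mean log2(value + 1), SAR minus model, for each gene with its SE (3 libraries a group); filled symbols have an adjusted p below 0.05. Lcn2, S100a9, S100a8 and Orm2 lie between -2.68 and -1.52, Crp and the serum amyloid A genes between 1.24 and 1.38.

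The calls were not equally firm. Those of Lcn2, Saa1 and Saa2 held in all 12 alternatives tried, which include leaving out each of the 6 libraries. S100a9 lost its call in 1 of 12, the authors' deposited table (adjusted p 0.0862 there), and Saa3 in 2 of 12, without model library b or SAR library b (limma adjusted p = 0.0572 and 0.0507). The calls of Orm2 and Crp were each lost in 5 of 12 and that of S100a8 in 6 of 12. Orm2 was lost without each SAR library in turn (limma adjusted p = 0.0588 to 0.0709), Crp without model libraries a or b or SAR libraries b or c (0.0830 to 0.107), and S100a8 without model library b or SAR libraries a or b (0.0785 to 0.118). In the authors' deposited table Orm2 had an adjusted p of 0.240 and S100a8 of 0.191, while Crp passed at 0.0441. No left-out library changed the direction of any of these 8 differences.

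The comparison of the SAR with the normal group asks how far the treated animals stood from the normal ones. With all 6 libraries limma called 0 of the 10 members, where 3.16% of all 11701 genes tested were called in either direction. Unadjusted, 2 members had a p below 0.05, Saa3 (1.95, SE 0.80) and Crp (-0.55, SE 0.22), and limma voom also called 0. Without normal library c, 5 members were higher in the SAR group, against 4.53% of all genes higher. These calls too are descriptive, since that library was set aside for the members' own values. Lcn2 was 3.23 higher on the log2 scale (SE 0.38, limma adjusted p = 0.00307) and Saa3 3.04 higher (SE 0.26, 0.00126). Orm2 was 2.30 higher (SE 0.24, 0.00212), Saa2 2.27 higher (SE 0.36, 0.0112) and Saa1 1.56 higher (SE 0.36, 0.0322). S100a8 at 1.77 (limma adjusted p = 0.189), S100a9 at 1.12 (0.157), Hp at 0.59 (0.106), Orm1 at 0.18 (0.589) and Crp at -0.51 (0.175) did not pass. Both model and SAR differences from normal share the same normal libraries, and the SAR and model differences share the model libraries, so the 3 comparisons are not independent.

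Ratios of reads between members within a library do not depend on the size factor. The ratio of Saa1 to Lcn2, chosen after its values were seen and so given with no test, was 7.11, 6.45 and 7.14 in the normal libraries. It was 0.134, 0.128 and 0.146 in the model libraries and 2.05, 1.84 and 2.54 in the SAR libraries. Normal library c, in which Lcn2 was 157-fold and Saa1 173-fold higher than in normal library b, lay next to normal library a in this ratio, and the 3 groups did not overlap. The ratio of Orm2 to Orm1 separated the libraries otherwise. It was 0.0237 and 0.0269 in normal libraries a and b and 0.226 in normal library c, 0.297, 0.222 and 0.326 in the model libraries, and 0.0928, 0.118 and 0.120 in the SAR libraries. Normal library c lay inside the model range for this ratio.

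The ratio of Saa2 to Saa1 was 0.380 and 0.318 in normal libraries a and b and 0.858 in library c, the highest of the 9. It ran from 0.454 to 0.589 in the model and from 0.493 to 0.646 in the SAR libraries, which overlapped. The ratio of S100a9 to S100a8 ran from 2.22 to 2.38 in the model libraries. It was more variable where reads were few, from 1.22 to 3.29 in the SAR libraries and from 1.60 to 5.71 in the normal ones. Reads of close relatives may have been shared by the authors' counting. Of the 50-base stretches of the Saa1 transcript 13.2% also occur in Saa2, and 20.4% of those of Orm2 in Orm1, so the split within these pairs is uncertain. S100a8 and S100a9 share no such stretch.

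**Figure D4:**
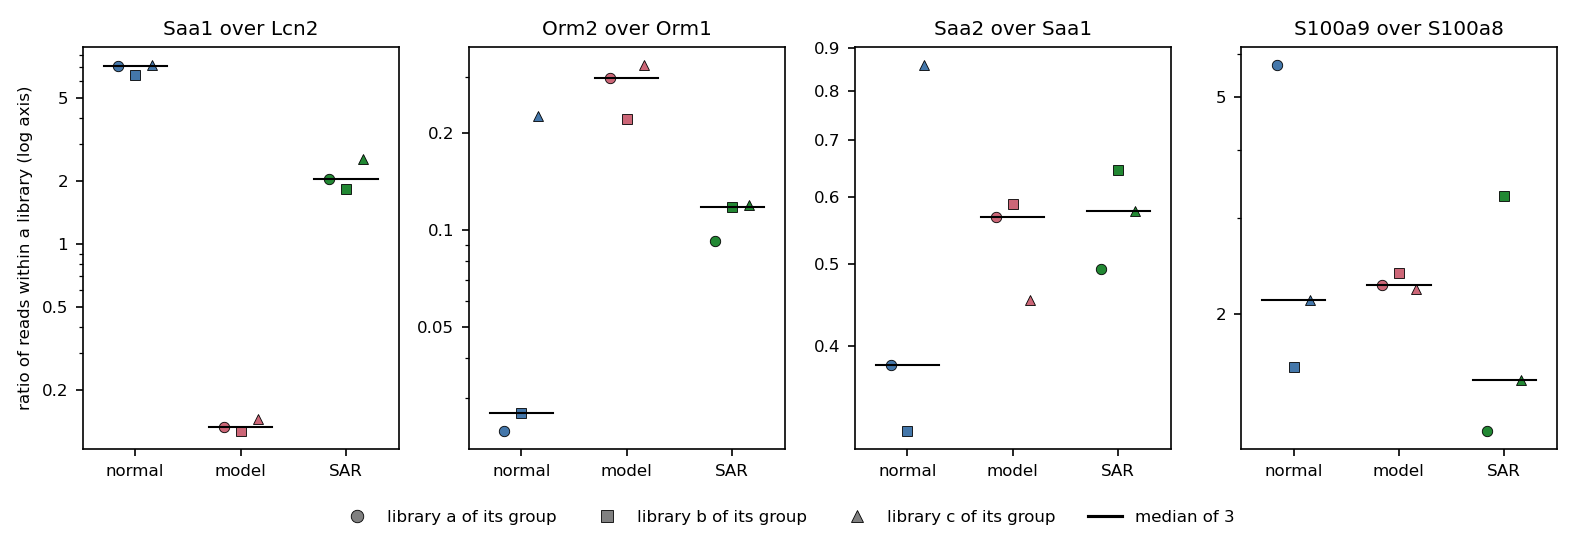
Ratios of reads between pairs of members within each library on a log axis, by group, with the median of each group as a line. The Saa1 to Lcn2 ratio of normal library c (7.14) falls among the normal libraries, whereas its Orm2 to Orm1 ratio (0.226) falls among the model libraries.

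Signal genes upstream of the acute phase response changed in both directions. In the SAR group, 6 of 26 tested rose and 5 fell against the model group, with a median of -0.26, where 13.5% of all genes tested rose and 16.0% fell. Receptor genes were the called ones with the smallest adjusted p: Il1rap rose by 1.85, Il1r1 by 1.67, Il6ra by 1.36 and Lifr by 1.31 (limma adjusted p = 0.00134, 0.00111, 0.00412 and 0.00260). Of the C/EBP factor genes, Cebpa rose by 0.99 and Cebpd fell by 0.72 (limma adjusted p = 0.00574 and 0.0294). Stat3 (0.20), Socs3 (-0.46), Cebpb (0.45), Il1b (-0.67) and Tnf (-1.07) did not pass. In the model against the normal group 5 rose, among them Tnf by 3.48 and Il10rb by 2.58, and 8 fell, among them Il6ra (-1.18) and Stat3 (-0.83) (limma adjusted p = 0.00537, 8.86e-04, 0.0253 and 0.0441). Of all genes 19.7% rose and 19.2% fell in that comparison. Without normal library c, 8 of 26 rose and 8 fell, where 20.4% of all genes rose and 18.4% fell. Il6ra then differed by -0.88 and Stat3 by -0.50 (limma adjusted p = 0.0410 and 0.0319). Normalised reads of Stat3 were 1608, 1548 and 3125 in normal libraries a, b and c. Il6 itself was at 0 or within 1.53 normalised reads in every library.

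Of 26 other genes of positive acute phase proteins, 23 were tested for SAR against model, and 3 rose and 4 fell, with a median of 0.34. These shares were near those of all genes tested, 13.5% higher and 16.0% lower. Saa4, the constitutive serum amyloid A gene, rose by 2.54 (SE 0.27, limma adjusted p = 9.08e-04), where Saa1, Saa2 and Saa3 rose by 1.28 to 1.38. The difference between these genes was not tested. Cd14 (-2.0), Il1rn (-1.78) and Spink1 (-3.95) fell (limma adjusted p = 0.00147, 0.00218 and 0.0163). Serpina3n (0.36), Lrg1 (0.29), Fgb (0.84), Itih4 (0.54) and Orm3 (0.37) did not pass. Normal library c was also the highest of the 9 for Orm3 (1962), Serpina3n (92281), Lrg1 (43312), Hpx (326334), Fgb (259411) and Itih4 (78344). In the model against the normal group, 2 of 24 tested rose and 2 fell, where 19.7% of all genes rose and 19.2% fell. Leaving out normal library c, 6 of 24 rose and 4 fell, near the 20.4% and 18.4% of all genes.

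Among 16 receptors and carriers of these proteins, Cd163, the scavenger receptor for haptoglobin bound to hemoglobin, stood at 573, 600 and 1056 normalised reads in the normal libraries. It stood at 15.9 to 126 in the model and at 17.9 to 132 in the SAR libraries. It fell by 4.42 in the model (SE 0.74, limma adjusted p = 0.00515) and differed by 0.79 between SAR and model (SE 0.89, limma adjusted p = 0.521). Tlr4, a receptor for S100A8 and S100A9, rose by 1.44 in the model group and fell by 1.42 in the SAR group (limma adjusted p = 0.0178 and 0.0149). Slc22a17, a receptor for lipocalin 2, did not pass in either (1.52 and -1.01, limma adjusted p = 0.0658 and 0.245). The model differences without normal library c were -4.14 for Cd163 and 1.24 for Tlr4 (limma adjusted p = 0.00910 and 0.0314). In all, 6 of 14 tested rose and 1 fell in the model group, where 19.7% of all genes rose and 19.2% fell. Without normal library c 8 of 15 rose and 1 fell, against 20.4% and 18.4% of all genes. In the SAR against the model group 0 of 15 rose and 5 fell, against 13.5% and 16.0% of all genes.

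Most neutrophil markers tested fell in the SAR against the model group, as S100a8, S100a9 and Lcn2 did. Of 20 tested for SAR against model, 12 fell and 1, Wfdc21, rose, with a median of -1.94, where 16.0% of all genes fell and 13.5% rose. Among those that fell, Mpo, Ltf, Cd177, Il1r2 and Ngp had SAR means of 0.427 to 8.05. They reached the minimum mean for testing only through the model group, so their direction was fixed. The count and the median are therefore a description. Chil3 (-3.07), Cxcr2 (-2.18), Csf3r (-1.76) and Ncf1 (-1.42) were among those that fell (limma adjusted p = 0.00106, 0.00528, 0.00667 and 0.00219). In the model against the normal group 2 of 22 rose and 1, Wfdc21 (-2.65, limma adjusted p = 0.0159), fell. Of all genes 19.7% rose and 19.2% fell in that comparison. Without normal library c 15 of 20 rose and Wfdc21 fell, where 20.4% of all genes rose and 18.4% fell. That count too is a description. Several markers had low normal means without library c, such as 0 for Mpo and Camp, 1.5 for Chil3 and 3.53 for Ngp. These reached the minimum mean only through the model group, so a rise was fixed in advance. For SAR against normal without library c, only 10 of the 29 listed markers reached the minimum mean for testing. Their median difference, 0.40, is not that of the whole list. Summed over the 28 markers other than Wfdc21, normalised reads were 559, 677 and 5874 in the normal libraries, 1752 to 2364 in the model libraries and 574 to 876 in the SAR libraries. Wfdc21, left out of the sum after its values were seen, alone held 396 to 8903, the highest in normal library c, and its direction was opposite to the other markers.

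Granule genes of neutrophils and their precursors, 7 of the listed markers, were split off after their values were seen. They were low in normal libraries a and b and in the SAR libraries, and high in normal library c. Other markers on the list were not all highest there. Csf3r stood at 173 in normal library c and 191 to 487 in the model libraries, and Ncf1 at 205 and 217 to 293. Mpo stood at 0 in normal libraries a and b, 265 in normal library c, 4.34 to 57.5 in the model and 0 to 1.28 in the SAR libraries. Ngp stood at 3.84, 3.23 and 964 in the normal libraries, at 26.0 to 146 in the model and at 2.56 to 13.1 in the SAR libraries. Summed over Mpo, Elane, Prtn3, Ctsg, Camp, Ngp and Ltf, they held 16.3, 20.5 and 2712 in the normal libraries, 68.0 to 500 in the model libraries and 25.6 to 48.9 in the SAR libraries. Ly6g stood at 24.2 in normal library c and at no more than 7.19 elsewhere. In RNA of whole tissue, fewer neutrophils and less RNA in each cannot be told apart, and what part these cells had in the values of Lcn2, S100a8 and S100a9 was not tested. Crp and the serum amyloid A genes went against the neutrophil markers in the SAR group, and Saa1 and Saa2 were, like the granule genes, far higher in normal library c.

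**Figure D5:**
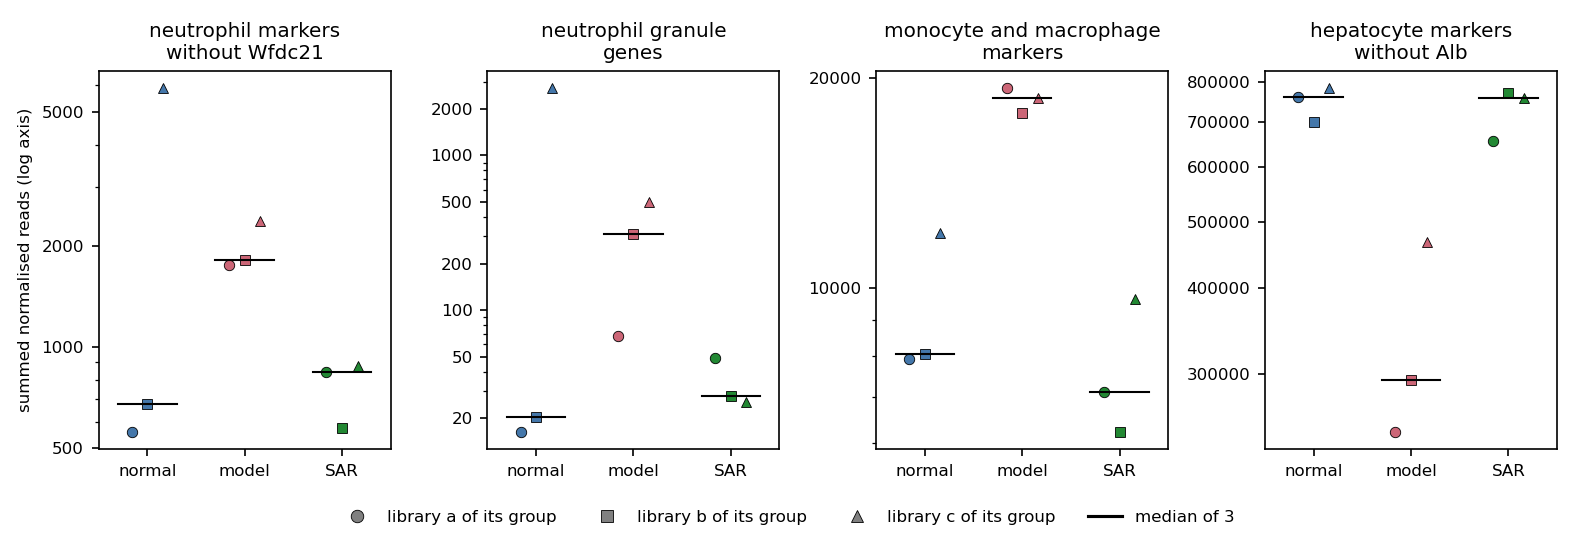
Summed normalised reads of marker lists on a log axis in the 9 libraries, by group, with the median of each group as a line. Neutrophil granule genes, split off after their values were seen, sum to 16.3 and 20.5 in normal libraries a and b and to 2712 in library c. Hepatocyte markers lie between 698400 and 782425 in all 3 normal libraries.

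A list of neutrophil attractants, growth factors and adhesion genes had 9 members tested for model against normal, where 19.7% of all genes rose. Of these 4 rose, the chemokine genes Cxcl2 by 4.37 and Cxcl5 by 4.35, Lgals3 by 4.96 and Selplg, a selectin ligand gene, by 1.96 (limma adjusted p = 0.00348, 0.00922, 2.26e-04 and 0.00449). Cxcl1 (2.64), Selp (-1.46) and Ppbp (-0.81) did not pass (limma adjusted p = 0.0611, 0.0628 and 0.641). Without normal library c 7 of 8 rose, against 20.4% of all genes, Cxcl1 among them (3.93, limma adjusted p = 1.79e-04). In the SAR against the model group 4 of 8 fell, against 16.0% of all genes, among them Cxcl5 (-4.18) and Lgals3 (-2.23) (limma adjusted p = 0.00684 and 0.00114). Cxcl1 differed by -0.75 and Cxcl2 by -0.35 (limma adjusted p = 0.323 and 0.665), and Cxcl2 was 3.84 higher in the SAR than in the normal group (limma adjusted p = 0.0388, and 3.86 with 0.0180 without normal library c). Cxcl2 stood at 0.959 to 1.10 normalised reads in the normal libraries, library c included. Cxcl1 stood at 48.9 and 44.2 in normal libraries a and b and at 686 in library c.

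Markers of other cell types also differed between groups. Hepatocyte markers other than Alb summed to 698400 to 782425 normalised reads in the normal, 246558 to 467177 in the model and 655171 to 769962 in the SAR libraries. Of 14 tested 10 rose in the SAR against the model group, where 13.5% of all genes rose. Crp, which is made by hepatocytes, also had its lowest group mean in the model group. For Crp every normal library lay above every SAR library, whereas the marker sums of the normal and SAR groups overlapped. Monocyte and macrophage markers summed to 7913 to 12006, 17812 to 19318 and 6227 to 9644. In the SAR against the model group 11 of 17 fell, where 16.0% of all genes fell. The resident macrophage markers Clec4f (-1.12), Vsig4 (-1.09) and Timd4 (-3.62) fell in the model against the normal group (limma adjusted p = 0.00387, 0.0239 and 0.0153). Of the 16 on the list tested there 9 rose, against 19.7% of all genes. When normal library c was left out, 10 rose, against 20.4% of all genes, and Vsig4 did not pass (-0.91, limma adjusted p = 0.0504). None of these 3 genes passed between SAR and model, with differences of 0.02, -0.41 and 0.97 (limma adjusted p = 0.940, 0.373 and 0.480). Lyz2, a lysozyme gene, alone held 5578 to 7125 of the sum in the model libraries. Markers of cholangiocytes, the cells that line the bile ducts, summed to 465 to 852, 2006 to 10939 and 766 to 1697. In model libraries a, b and c the sums were 9648, 10939 and 2006, of which Spp1 alone held 8426, 9563 and 1772. The part of these cell types in the members' values was not tested.

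For 4 members, the genes most like them over the 9 libraries were taken from 12387 genes by Pearson's r of log2(value + 1), as a description with no test, since all share libraries and normal library c weighs heavily. For Lcn2 these included Ehd1 (r = 0.971), Chil3 (0.964), Zc3h12a (0.960) and the member Orm2 (0.959). For S100a8 they were its partner S100a9 (0.966), Retnlg (0.965), Faap20 (0.953), Mmp8 (0.952) and Mcemp1 (0.950). For Saa3 they included Plk3 (0.929), Ribc1 (0.929), Klf10 (0.926) and Wdr83os (0.909). For Crp, which did not follow library c, they were Ttpa (0.996), Gm4737 (0.995), Ahcy (0.994), Ccnc (0.992) and Prps1 (0.992). Retnlg, Mmp8 and Chil3 are also on the list of neutrophil markers.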

How the data were processed

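Liver RNA-seq of 9 samples in 3 groups of 3 was used as 2 deposited tables, model against normal and SAR against model. Trizol extracts were prepared with a NEBNext Ultra kit, per the labels' protocols, and the submitters' processing notes name build mm9. The aligner, the counter and the strand setting were not given in the sources used here. Per the file headers, the deposited signal is a mean over the libraries of a group of reads scaled by the authors' DESeq size factors. The authors' fold relates both group means as a ratio, and the deposited log2 value is its logarithm. The authors' DESeq test gave the deposited p-values.

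Reads per library were recovered from the group means, which have 15 digits and are sums over 3 libraries of a whole read number times a library constant. The model group, present in both tables, had 1 solution for 16147 of 16147 genes. The normal group had 1 solution for 16195 genes and several for 179, and the SAR group 1 for 16229 and several for 65. Of these, 178 and 63 were settled by recomputing the deposited p with the authors' DESeq formula. That computation matched the deposited p for 15531 of 15531 and 15514 of 15514 genes with 1 solution, within 1e-06 relative. Alb in the normal and SAR groups and mt-Co1 in the SAR group were not settled. Counts per sample had been assumed, so limma on log2 values, named for this case, was used.

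Genes with a mean of at least 10 normalised reads over the 6 libraries were tested two-sided on log2(value + 1) with limma 3.58.1 and its variance trend. A gene near 0 in 1 group passes this minimum only through the other group, which fixes the direction of its difference. Adjustment was by Benjamini-Hochberg across every gene tested, with 0.05 as the threshold. Printed levels are on a median-of-ratios scale over 9 libraries, which differs from the scales of the comparisons by at most 2.46%. Alternatives were a pseudocount of 10, no filter, no variance trend, the common scale, limma voom, each library left out and the authors' test. The recovery and limma were tested on simulated data. For limma these had the same dispersion for every gene and no library that stood apart, so they do not cover a library like normal library c. IDs were matched to symbols for 16490 of 16521 genes.

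The members and the 11 further lists of 180 symbols, 4 of them not among the genes measured, were chosen with earlier results of these data known. Named from each list were up to 4 called genes with the smallest adjusted p in a comparison and some chosen by name; a few genes are not reported here. The promoter sequences are RefSeq's, for GRCm38.p6, and transcript lengths are GENCODE's.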

Additional observations from a re-analysis of the deposited data

How the results depend on the processing

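No paired analysis was possible because the recovered libraries carry no replicate number. Of the 12 alternatives tried for each comparison with a deposited table and the 11 for SAR against normal, those with another pseudocount, no filter or common size factors left every count of members called unchanged. For SAR against model 8 of the 10 members were called, and 5 with no variance trend, 5 in the authors' deposited table, 7 with limma voom and 4 to 8 with 1 library left out. For model against normal the count of members called was 1 to 6 with 1 library left out, and for SAR against normal 0 to 5. In both, the highest count is the one without normal library c. Counts of all genes called with 1 library left out ran from 2400 to 5827 for model against normal (4925 with all), from 1566 to 5190 for SAR against model (3694 with all), and from 5 to 1078 for SAR against normal (370 with all, and 28 with no variance trend).

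Directions turned as follows, and none of the values with all libraries passed. With 1 library left out, the log2 differences of model against normal ran from -4.12 to 0.30 for Saa1, -4.09 to 0.91 for Saa2, -1.70 to 0.38 for Orm1 and -0.99 to 0.51 for Hp, each above 0 only without normal library c. In the ratio of means of the authors' deposited table, Lcn2 (-0.54), Saa3 (-0.14), Orm2 (-1.34), S100a8 (-0.71) and S100a9 (-0.61) turned below 0, since that ratio follows normal library c. For SAR against model, Orm1 ran from -0.39 to 0.24 and Hp from -0.03 to 0.35. For SAR against normal the ranges were -1.18 to 3.23 for Lcn2, -2.85 to 1.56 for Saa1, -2.73 to 2.27 for Saa2, -1.89 to 0.18 for Orm1, -1.40 to 2.30 for Orm2, -0.90 to 0.59 for Hp, -2.09 to 1.77 for S100a8 and -2.11 to 1.12 for S100a9. The cause was not tested.

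With 3 libraries a group, 1 library decides the normal level of 9 of the 10 members. Levels under about 10 normalised reads, as for Mpo or Ngp in the SAR group, rest on few reads. Fits with 1 library left out keep 2 or 3 libraries a group.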
